A study of Mus musculus with 12 samples.

Results

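Tumours of mice given entinostat alone were compared directly with tumours of mice given an anti-PD-1 antibody alone. The libraries were chosen by their titles, 3 for entinostat and 3 for anti-PD-1, which makes 6 of the 12 samples of the series. The other 6 samples are 3 control and 3 combination libraries, and their values stand below only as a description or as part of the shared estimate of spread. All mice came from a genetically engineered model of small cell lung cancer with floxed alleles of Rb1 (Rb1 fl/fl) and p53 (p53 fl/fl) and a Cre-activated Myc allele (Myc lsl/lsl T58A). Tumours were started by instilling Ad5CGRP-Cre, an adenovirus that expresses Cre from the promoter of the neuroendocrine peptide CGRP, into the trachea, at 8 weeks of age in the cohort for which the labels give an age. Mice whose tumours were seen by MRI were randomised by tumour volume. Entinostat was given at 15 mg/kg daily by mouth for 28 days, and the antibody at 10 mg/kg into the peritoneum 2 times a week for 4 weeks. The labels do not say whether mice on the antibody also received the oral vehicle, or mice on entinostat an isotype antibody, so agent, route and vehicle cannot be told apart. All samples carry the same batch label (2). The labels do not state that the 3 libraries of a group came from 3 mice, so the p-values below measure the spread between these samples, which may be partly technical.

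Entinostat inhibits the class I histone deacetylases, enzymes that remove acetyl groups from histones and work within corepressor complexes such as NuRD, Sin3 and CoREST. PD-1 is an inhibitory receptor on activated T cells, and its ligand PD-L1, encoded by Cd274, is made by tumour and myeloid cells. Small cell lung cancer is a neuroendocrine carcinoma whose cells can lose neuroendocrine and neuronal genes and take on Notch-active, YAP1-expressing or mesenchymal programmes, and MYC is known to drive such shifts in this model.

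RNA came from flash-frozen pieces of tumour, was selected for poly(A) and sequenced in bulk, so fewer cells of a type and less RNA per cell cannot be told apart in any result below. Total counts per library ran from 34107018 to 37076865 with anti-PD-1 and from 31987261 to 40469275 with entinostat. The neuroendocrine markers Chga, Syp, Ncam1 and Uchl1 were detected in all 6 libraries, at 41 to 56.1 CPM of Chga (CPM, counts per 1000000 counts of the scaled library) with anti-PD-1 and 31.1 to 109 with entinostat. The structural RNAs Rpph1, Rn45s and Rmrp held 25.6%, 36.4% and 20.5% of counts in anti-PD-1 libraries 1, 2 and 3, against 15.2%, 18.8% and 19.3% with entinostat, without overlap. Xist was high in anti-PD-1 libraries 1 and 2 and in entinostat library 1, and the Y-linked genes in the other 3. Correlations of log2 CPM between libraries were 0.926 to 0.933 within anti-PD-1, 0.928 to 0.958 within entinostat and 0.911 to 0.945 between the groups, over genes, which are not independent. Anti-PD-1 library 1 stood apart in its cell types, as shown by the plot of cell type and lineage lists per library. Its alveolar epithelium score, the mean log2 CPM of 18 markers, was 1.09 against 3.34 to 4.93 in the other 5 libraries, and its B and plasma cell score was 3.05 against 0.08 to 1.25.

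**Figure D1:**
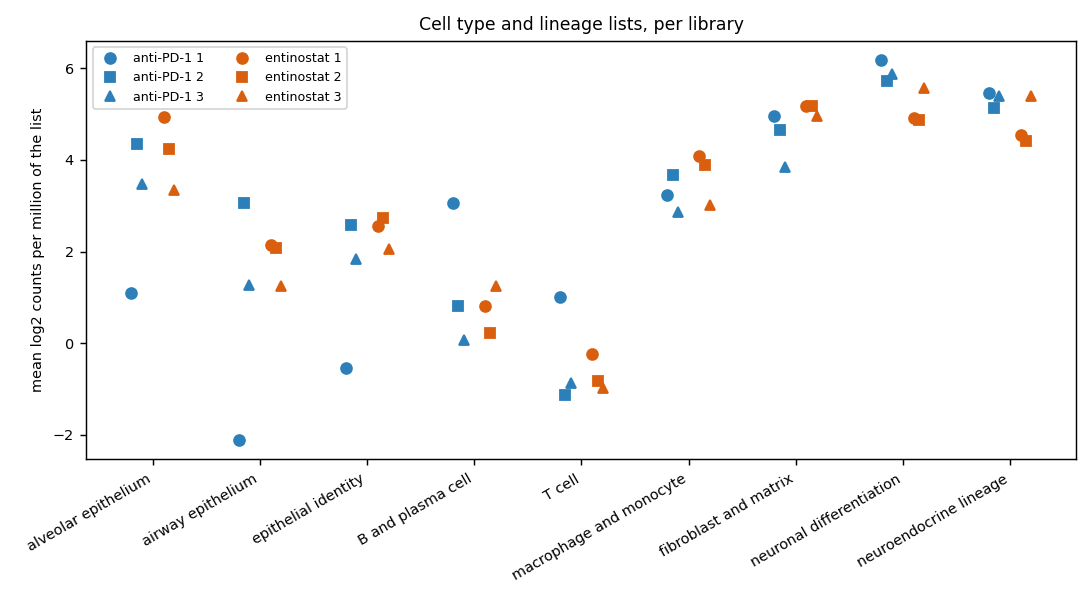
Mean log2 CPM of the tested genes of 9 lists (y axis) in each anti-PD-1 (blue) and entinostat (orange) library, with the marker shape giving the replicate number. Anti-PD-1 library 1 (blue circles) lies lowest for the 3 epithelial lists and highest for the B and plasma cell and T cell lists. All 3 entinostat libraries lie below the anti-PD-1 libraries for neuronal differentiation. For fibroblast and matrix they lie above them, with the lowest entinostat library at 4.961 and the highest anti-PD-1 library at 4.952.

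No gene passed the test chosen for the comparison. Of 17426 genes tested with edgeR's quasi-likelihood test, 0 (0%) had a Benjamini-Hochberg adjusted p under 0.05, and the smallest adjusted p was 0.423. At an unadjusted p under 0.05, 693 genes (3.98%) were higher with entinostat and 839 (4.81%) lower. The outcome depended on the tool: DESeq2 called 147 genes, 0.922% of the 15950 to which it gave an adjusted p, with 58 higher and 89 lower, while limma voom called 0 genes and had 1342 at an unadjusted p under 0.05. Of the 147, 142 had groups whose libraries did not overlap. Over all tested genes, the 3 entinostat libraries lay above all 3 anti-PD-1 libraries for 1420 genes (8.15%) and below them for 1481 (8.5%), and 392 and 402 of these also differed by at least 2-fold. Counts of list members without overlap are to be read beside the shares of 8.15% and 8.5%. The median standard error of a log2 fold change was 0.39, and the quartiles of the log2 fold changes were -0.34 and 0.33. Below, every log2 fold change is entinostat minus anti-PD-1 with its standard error over 3 libraries a group, levels are CPM in replicate order 1, 2 and 3, and a gene "did not overlap" where all 3 libraries of a group lay beyond all 3 of the other. None of the named genes passed edgeR's threshold. Of 53 genes followed under the alternatives, 24 passed DESeq2, and in the paragraphs below its adjusted p is printed only for genes that passed. Myc (0.128), Elavl4 (0.057) and Map2 (0.206) were among those that did not pass DESeq2. A list's median, other than that of the clustered histones, is followed by its range over the 6 fits that each leave out 1 library, and by its value with the alveolar epithelium score or the share of the 3 structural RNAs as a covariate where that turned its sign or moved it by over 1.5 times.

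**Figure D2:**
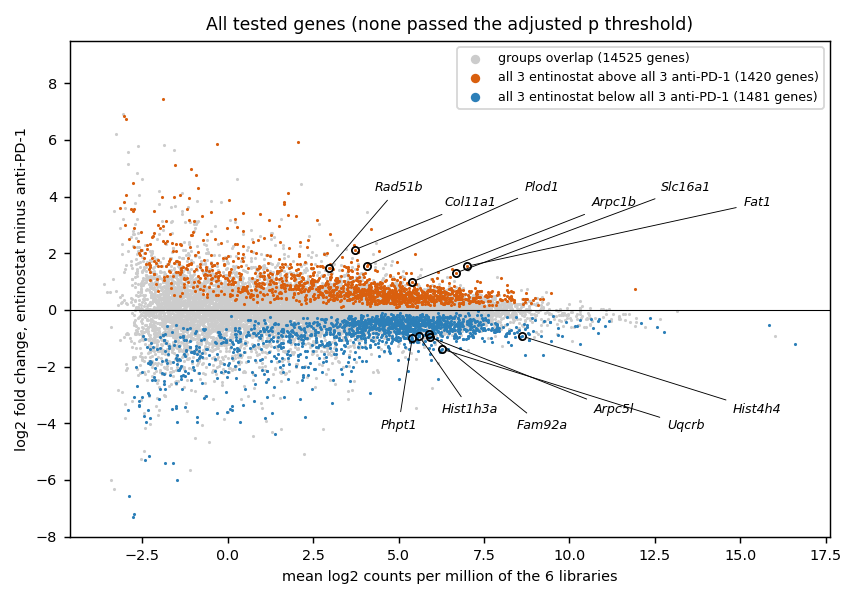
Each point is 1 of 17426 tested genes, with its mean log2 CPM over the 6 libraries on the x axis and its log2 fold change, entinostat minus anti-PD-1, on the y axis. Orange and blue points are the 1420 and 1481 genes whose libraries do not overlap, and the 12 leading genes are circled and named.

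The 6 leading genes on the entinostat side were Fat1, Col11a1, Plod1, Slc16a1, Arpc1b and Rad51b, all at an edgeR adjusted p of 0.423. Leading genes on both sides were picked only among genes without overlap, so their lack of overlap follows from the choice. Fat1, an atypical cadherin, lay at 63.1, 106 and 62 CPM with anti-PD-1 and at 253, 261 and 157 with entinostat. Its log2 fold change was 1.54 ± 0.28, and the lowest entinostat library was above the highest anti-PD-1 library. Fat1 lay at 59.6, 77.3 and 67 CPM in the controls and at 278, 167 and 214 in the combination. The control levels lay near those of anti-PD-1 and the combination levels near those of entinostat. DESeq2 gave Fat1 an adjusted p of 0.00262.

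Among the leading genes, 1 encodes a collagen and 1 a collagen-modifying enzyme. Of the 16 collagen and matrix genes of the fibroblast list, 0 were without overlap in either direction. The log2 fold change was positive for 14 of these 16 and negative for 2, at a median of 0.42. Col11a1, a chain of a fibrillar collagen, was at 10.2, 5.08 and 4.35 CPM with anti-PD-1 and 29.6, 31.9 and 23.7 with entinostat, a log2 fold change of 2.12 ± 0.40 (DESeq2 adjusted p 0.00262). Plod1, which hydroxylates lysines of collagen, was at 8.59, 10.6 and 10.5 CPM against 20.0, 35.7 and 32 (1.56 ± 0.31 on the log2 scale, DESeq2 adjusted p 0.00295). The entinostat libraries were higher for both genes, without overlap by the choice of leading genes. In the controls Col11a1 lay at 12.9, 5.96 and 7.64 CPM and in the combination at 48.4, 27.5 and 49.8, and Plod1 at 6.83, 11.9 and 11 and 34.4, 24.3 and 45.

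Slc16a1, which encodes the lactate transporter MCT1, lay at 69.6, 68.5 and 59.7 CPM with anti-PD-1 and at 221, 131 and 136 with entinostat (1.3 ± 0.26 on the log2 scale). Entinostat library 1 was the highest of the 6, and the controls, at 109, 70.1 and 106, and the combination, at 117, 115 and 77.1, lay between those of the 2 single agents. Arpc1b, a subunit of the actin-nucleating Arp2/3 complex, was at 29.9, 31.3 and 29.1 CPM against 71.6, 62.4 and 45.6 (0.99 ± 0.20). Rad51b, a gene of recombination repair, was at 3.14, 7.02 and 4.2 CPM against 13.2, 13.1 and 13.8 (1.48 ± 0.32). The 3 entinostat libraries of Rad51b lay close together, and those of anti-PD-1 spread more widely below them.

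The 6 leading genes on the anti-PD-1 side were Arpc5l, Hist1h3a, Fam92a, Uqcrb, Hist4h4 and Phpt1, again at an edgeR adjusted p of 0.423, and all 12 leading genes passed DESeq2 at adjusted p-values from 0.00262 to 0.00548. Arpc5l, another Arp2/3 subunit, lay at 83.8, 75 and 96.5 CPM with anti-PD-1 and at 45.8, 41.5 and 43.7 with entinostat, a log2 fold change of -0.96 ± 0.18. The 2 Arp2/3 subunits thus led in opposite directions. The controls held 89.6, 85.8 and 78.7 CPM of Arpc5l and the combination 38.9, 55.7 and 39.2.

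Uqcrb, a subunit of respiratory complex III, lay at 138, 115 and 123 CPM with anti-PD-1 and at 36.3, 49.4 and 58.5 with entinostat (-1.38 ± 0.27 on the log2 scale). Its levels in the controls (120.4, 128 and 76) and in the combination (63, 113 and 84.6) overlapped each other. Phpt1, a phosphohistidine phosphatase, was at 54.2, 49 and 77.4 CPM against 28.9, 31.7 and 30.1 (-0.99 ± 0.20), and Fam92a, a membrane-binding protein of the cilium base, at 80.2, 86.8 and 76.3 against 37.6, 49.8 and 46.5 (-0.86 ± 0.17). For both, the 3 entinostat libraries lay below all anti-PD-1 libraries, again by the choice of leading genes.

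**Figure D3:**
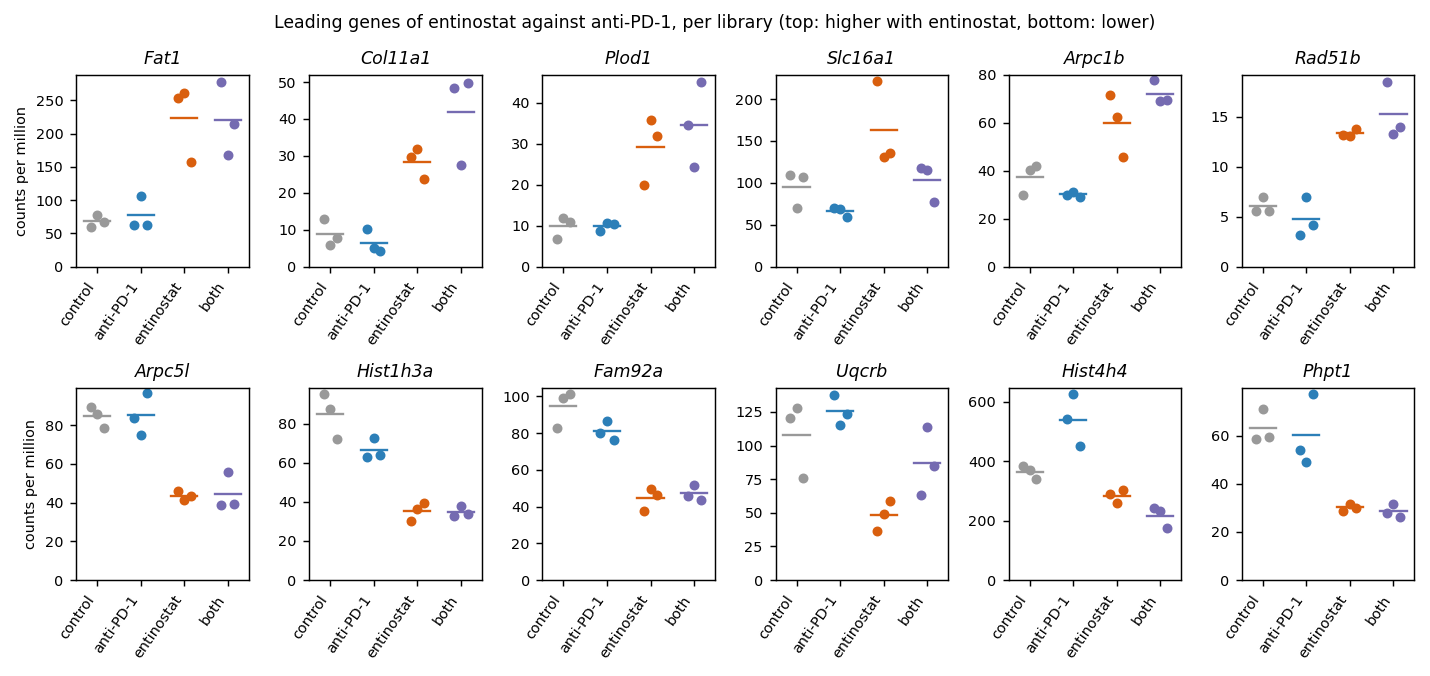
CPM on linear axes from 0 (y axis) of the 6 leading genes on each side in the 3 libraries of each group, with "both" for the combination and a bar at each group's mean. The genes were chosen among those without overlap, so anti-PD-1 and entinostat libraries are apart in every panel by selection. The control and combination libraries were not used to rank the genes by direction, but they share the fit's estimate of spread.

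Histone genes stood on the anti-PD-1 side. Hist1h3a, which encodes a histone H3, lay at 63.1, 72.5 and 63.7 CPM with anti-PD-1 and at 30.3, 36.5 and 39.3 with entinostat (-0.91 ± 0.17 on the log2 scale). Hist4h4, a histone H4 gene, was at 541, 624 and 449.9 against 290.2, 259 and 303 (-0.92 ± 0.18), and its control level of 382, 369 and 341 lay between those of the single agents. Hist3h2a, an H2A gene, was at 397, 333 and 433 against 261, 173 and 207 (-0.86 ± 0.28). Of the 59 tested genes named as clustered histones, a group picked after these values were seen, 18 did not overlap with entinostat lower and 0 did with it higher. Their median was -0.43 on the log2 scale beside 0.00037 over all tested genes. Most histone mRNAs lack a poly(A) tail and histone genes resemble each other closely. The share of their reads that was captured and assigned is therefore uncertain. The share of the structural RNAs was also higher with anti-PD-1 without overlap, and its part in the histone values was not tested. The histone median was not taken with that share as a covariate or on leaving out each library.

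The engineered genes were read in every library, as all groups carry the same alleles. Myc lay at 99.8, 165 and 79.1 CPM with anti-PD-1 and at 183, 244 and 273 with entinostat, a log2 fold change of 1.02 ± 0.32 (edgeR adjusted p 0.467). The highest anti-PD-1 library was below the lowest entinostat library. Myc was at 91.8, 50.6 and 99.7 CPM in the controls and at 209, 157 and 211 in the combination, and reads of the engineered and the native Myc allele are not separated in these counts. Rb1 lay at 63.8, 53 and 81.7 CPM against 26.6, 38.7 and 50.9 (-0.77 ± 0.29, edgeR adjusted p 0.493), also without overlap. Trp53 was at 10.2, 8.4 and 19 against 10.9, 13.9 and 11.8, with the groups overlapping. Residual reads of Rb1 and Trp53 can come from host cells and from the parts of the floxed genes that Cre leaves in place.

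The genes of the drug's targets differed little in level. Hdac1 was at 53.4, 61.9 and 61.9 CPM with anti-PD-1 and 81.3, 63.1 and 76.9 with entinostat, an unadjusted 95% interval of -0.04 to 0.68 for the log2 fold change. Hdac2 was at 131, 136 and 137 against 120.4, 127 and 129.8 (interval -0.57 to 0.37) and Hdac3 at 74, 75.3 and 73.7 against 69, 66.5 and 72.2 (interval -0.43 to 0.22). Hdac1 was above and Hdac2 and Hdac3 just below without overlap. The log2 fold change was larger than its standard error for Hdac1 (0.32 ± 0.17) and smaller for Hdac2 (-0.10 ± 0.21) and Hdac3 (-0.10 ± 0.15). Of the 27 tested deacetylases and corepressor subunits, 3 did not overlap with entinostat higher (Hdac1, Mta1, Rcor1) and 3 with it lower (Hdac2, Hdac3, Sap30), and their median log2 fold change was -0.10, from -0.11 (without entinostat library 3) to 0.05 (without anti-PD-1 library 3) on leaving out each library, and -0.003 with the alveolar score and 0.0015 with the structural RNA share as a covariate. Both shares without overlap were near the 8.15% and 8.5% over all tested genes. Rcor1, the CoREST scaffold, lay at 20.8, 26.3 and 17.6 CPM against 29.4, 32.4 and 32.3 (0.54 ± 0.19).

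Genes often raised by HDAC inhibitors gave no common direction between the single agents. Of the 18 tested, 1 did not overlap with entinostat higher, Clu, a secreted chaperone, at 12.6, 15.6 and 12.9 CPM against 30.5, 61 and 16.2 (1.39 ± 0.63), and 2 with it lower, the histone genes Hist3h2a and Hist1h2bk. Their median was 0.03, from -0.21 (without entinostat library 1) to 0.17 (without anti-PD-1 library 3) on leaving out each library, and -0.32 with the alveolar score and 0.09 with the structural RNA share as a covariate. It was also below 0 without anti-PD-1 library 1 (-0.12), entinostat library 2 (-0.01) or entinostat library 3 (-0.07). Cdkn1a, which encodes the cell cycle inhibitor p21, was at 8.69, 8.57 and 17.8 CPM with anti-PD-1 and 9.04, 6.06 and 8.1 with entinostat, with overlap. Among 25 other chromatin regulators, 3 did not overlap with entinostat higher (Suz12, Ezh1 and Tet2) and 0 with it lower, at a median of 0.12, from 0.05 (without anti-PD-1 library 3) to 0.28 (without anti-PD-1 library 2) on leaving out each library, and 0.52 with the structural RNA share as a covariate. The share of these regulators higher was near the 8.15% over all tested genes. Suz12, a subunit of the Polycomb repressive complex that methylates histone H3, lay at 143, 136 and 141 CPM against 199, 170.4 and 210.2 (0.47 ± 0.17).

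Neuronal differentiation genes lay lower with entinostat than with anti-PD-1. Of 32 tested, 9 did not overlap with entinostat lower and 0 with it higher, and 29 had a negative log2 fold change. Their median was -0.85, from -1.15 (without entinostat library 3) to -0.61 (without entinostat library 1) on leaving out each library, beside 0.00037 for all tested genes. With the alveolar score as a covariate it was -0.63. Among the 9 were Stmn3, Stmn4, Map2, Gap43 and Tagln3 of microtubules and axons, the RNA-binding protein Elavl4, and Nrcam and Lrrtm4 of synapses and adhesion.

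Stmn3, a stathmin that destabilises microtubules, was at 125, 87.4 and 166 CPM with anti-PD-1 and 44.1, 43.5 and 48.4 with entinostat (-1.47 ± 0.39, edgeR adjusted p 0.434, DESeq2 adjusted p 0.0424). The entinostat libraries of Stmn3 lay within a narrow band, and the controls reached further up, at 412, 199 and 132, than any treated group. Elavl4, a neuronal Hu protein, was at 185, 247 and 114 CPM against 60.3, 82 and 71.8 (-1.35 ± 0.38). Map2, which stabilises dendritic microtubules, was at 418, 346 and 206 against 122, 131 and 189 (-1.13 ± 0.41). Entinostat library 3 was the highest of its group for Map2 and came close to anti-PD-1 library 3. Tagln3 was at 43.8, 30.7 and 36.7 against 15.7, 17.6 and 17 (-1.14 ± 0.37). Tubb3, a neuronal tubulin, overlapped, at 194, 96.2 and 286 CPM against 107, 43.3 and 43.8, and the neurofilament genes Nefl and Nefm had log2 fold changes near 0.

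**Figure D4:**
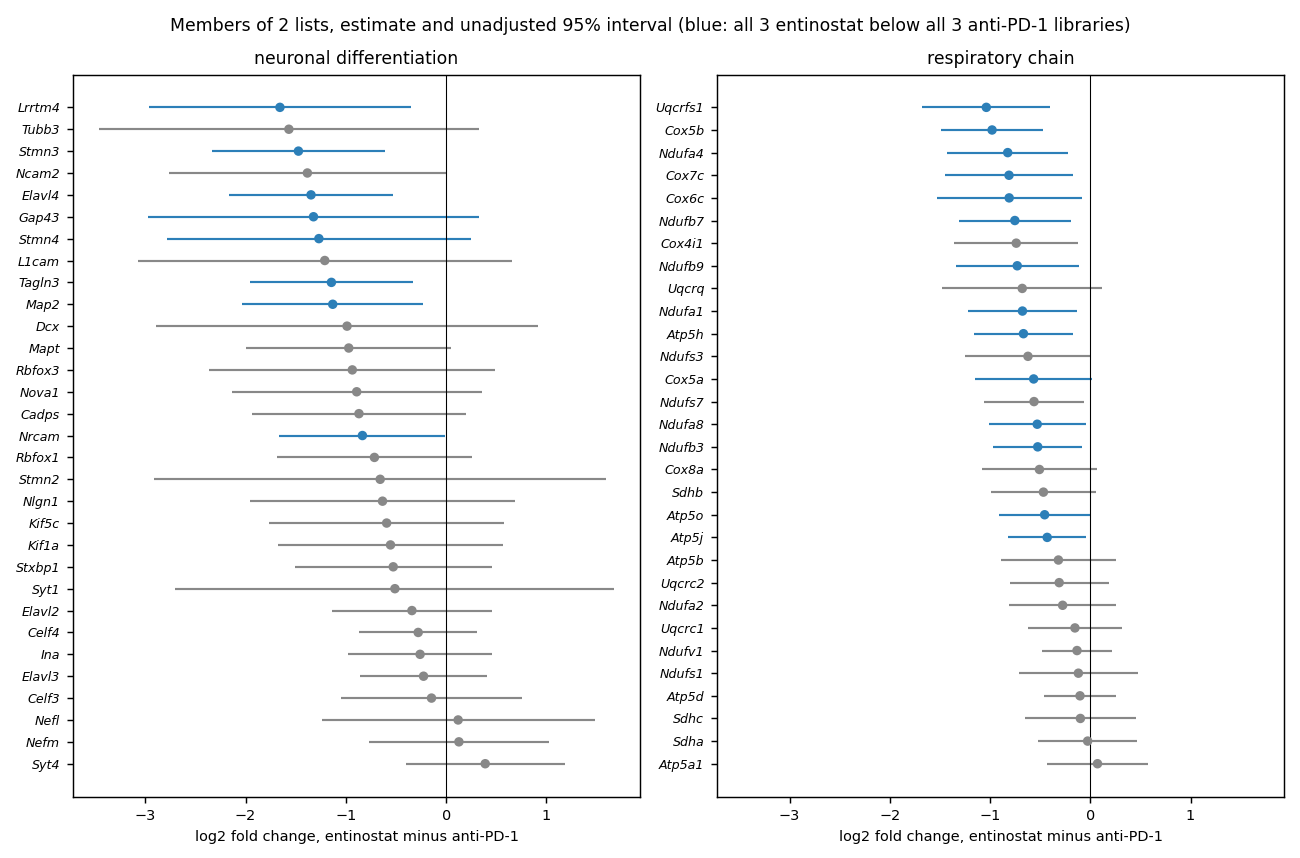
Log2 fold change, entinostat minus anti-PD-1 (x axis), with its unadjusted 95% interval for tested genes of neuronal differentiation (31 of 32, left) and of the respiratory chain (30 genes, right). Blue marks the 8 and 14 genes shown whose 3 entinostat libraries lie below all 3 anti-PD-1 libraries, and no gene shown lies above without overlap.

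The neuroendocrine genes were more mixed. Of 33 tested, 2 did not overlap with entinostat lower (Scg5 and Grp) and 0 with it higher, and their median was -0.34, from -0.63 (without entinostat library 3) to -0.26 (without entinostat library 1) on leaving out each library, and -0.22 with the alveolar score as a covariate. Scg5, a chaperone of prohormone convertase 2, lay at 112, 55.7 and 82 CPM with anti-PD-1 and 18.6, 29.5 and 42.8 with entinostat (-1.46 ± 0.35, DESeq2 adjusted p 0.0175). It lay at 75.8, 141 and 117 in the controls and at 19.2, 26.9 and 21.8 in the combination. Grp was near the detection limit, at 1, 1.06 and 0.967 against 0.484, 0.0586 and 0.428 CPM.

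The lineage transcription factors varied widely within each treatment. Neurod1, which marks a neuroendocrine subtype, was at 16.1, 20.1 and 149 CPM with anti-PD-1 and 62.5, 11.4 and 42.5 with entinostat. The groups overlapped for it and for all 13 tested factors of the lineage list. Insm1 lay at 55.1, 77.9 and 45.4 against 67.2, 50.7 and 83.4 and Nfib, a driver of metastasis in this disease, at 659, 634 and 568 against 459, 785 and 970.4. Pou2f3, the factor of the tuft-like subtype, did not pass the filter on low counts, with at most 0.363 CPM in the 6 libraries, and the 6 tested tuft-like genes gave 0 without overlap.

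Some genes of non-neuroendocrine states stood higher with entinostat, without passing the test. Yap1 lay at 3.01, 10.9 and 7.71 CPM with anti-PD-1 and 21.3, 16 and 5.74 with entinostat, with overlap. Of the 17 tested genes of the YAP1 and TEAD list, 2 did not overlap with entinostat higher (the matricellular targets Cyr61 and Ctgf) and 0 with it lower. The share higher was near the 8.15% over all tested genes. The list's median was 0.41, from 0.08 (without entinostat library 1) to 0.69 (without anti-PD-1 library 2) on leaving out each library, and 0.72 with the structural RNA share as a covariate. Cyr61 was at 5.55, 7.2 and 9.16 against 15.9, 27.6 and 13.5 (1.38 ± 0.37, DESeq2 adjusted p 0.0403). Of 12 tested mesenchymal genes 3 did not overlap with entinostat higher (Fn1, Itga5, Snai2) and 0 with it lower, at a median of 0.29, from 0.06 (without entinostat library 3) to 0.37 (without entinostat library 2) on leaving out each library. Fn1, which encodes fibronectin, lay at 344, 172 and 64.5 CPM against 474, 443 and 346 (1.12 ± 0.51), and anti-PD-1 library 3 was the lowest.

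Among 21 Notch genes, 1 did not overlap, the ligand gene Jag2 at 55.8, 49.4 and 60.6 CPM against 70.7, 78.2 and 79.9 (0.46 ± 0.19). The Notch list's median was 0.08, from -0.12 (without anti-PD-1 library 3) to 0.29 (without anti-PD-1 library 2) on leaving out each library, and -0.09 with the alveolar score and 0.47 with the structural RNA share as a covariate. It was also below 0 without entinostat library 1 (-0.07). The target Hes1 lay at 1.5, 8.4 and 4.68 against 10.4, 4.98 and 2.9, with overlap. Of 11 epithelial genes, 4 did not overlap with entinostat higher (Krt8, Krt18, Cldn4, Esrp1), at a median of 1.19, from 0.42 (without entinostat library 1) to 1.51 (without anti-PD-1 library 2) on leaving out each library, and 0.28 with the alveolar score and 2.02 with the structural RNA share as a covariate. Krt18, a simple epithelial keratin, was at 0.936, 7.34 and 8.64 CPM against 9.12, 19.4 and 23.5 (1.62 ± 0.90). Anti-PD-1 library 1, which held the least lung epithelium, was the lowest there, and without it the list's median was 0.47.

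Of 23 tested secreted Wnt, BMP and TGF-beta factors, 2 did not overlap with entinostat higher and 1 with it lower, shares near or below those over all genes. Sfrp2, a secreted Wnt modulator, lay at 0.334, 1.06 and 2.18 CPM with anti-PD-1 and 14.6, 9.19 and 4.12 with entinostat (2.96 ± 0.74, DESeq2 adjusted p 0.0069). Bmp8b, a BMP ligand, was at 0.735, 1.13 and 2.12 against 6.77, 4.33 and 10.1 (2.41 ± 0.63, DESeq2 adjusted p 0.0167). Wif1, a secreted Wnt inhibitor, stood on the other side, at 10.6, 0.812 and 1.96 against 0.22, 0.527 and 0.428 (-3.50 ± 1.07, DESeq2 adjusted p 0.0422), with anti-PD-1 library 1 far above the rest. The list's median was 0.36, from 0.12 (without entinostat library 3) to 0.80 (without anti-PD-1 library 1) on leaving out each library.

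In the Hedgehog and cilium list, 2 of 13 did not overlap with entinostat higher (Gli1, Evc2) and 1 with it lower, at a median of 0.42, from 0.14 (without anti-PD-1 library 1) to 0.52 (without anti-PD-1 library 2) on leaving out each library. Gli1, a transcription factor and target of the pathway, was at 1.3, 0.353 and 0.967 CPM against 2.24, 3.19 and 9.23 (2.47 ± 0.63, DESeq2 adjusted p 0.0167). Of 13 calcium channel genes, 5 did not overlap with entinostat higher (Itpr1, Itpr3, Ryr1, Trpv4, Atp2a2) and 1 with it lower (Ryr3). Itpr3, an inositol trisphosphate receptor of the endoplasmic reticulum, lay at 13.7, 9 and 8.61 CPM against 21.7, 38.2 and 15.3 (1.26 ± 0.49). It was at 2.96, 5.79 and 1.11 in the controls and at 67.7, 59.3 and 68.8 in the combination, so the combination held more than either single agent. Trpv4, a cation channel of the cell membrane, was at 1.24, 3.85 and 4.96 against 13.6, 6.97 and 10.1 (1.61 ± 0.75), and Ryr3, a ryanodine receptor, at 46.8, 7.73 and 14.9 against 2.79, 5.59 and 4.06 (-2.48 ± 0.87). The median of the calcium list was 0.24, from -0.01 (without anti-PD-1 library 2) to 0.38 (without anti-PD-1 library 1) on leaving out each library. It was also just below 0 without anti-PD-1 library 3 (-0.0010).

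Cyclin genes stood on both sides. Ccnd2, a D-type cyclin, lay at 9.86, 9.7 and 3.02 CPM with anti-PD-1 and 62.1, 69.9 and 30.2 with entinostat (2.85 ± 0.67, DESeq2 adjusted p 0.00328). Ccnd1 was at 8.16, 28.8 and 21 against 80.2, 75.7 and 29.9, also without overlap. The E-type cyclin gene Ccne2 stood the other way, at 296, 239 and 276 against 173, 131 and 193 (-0.71 ± 0.21), as did Cdkn1b, which encodes the inhibitor p27, at 159.8, 129.6 and 137 against 79.3, 89.3 and 98.7 (-0.67 ± 0.21). Over the 43 tested cell cycle genes, 4 did not overlap in each direction and the median was -0.03, from -0.08 (without anti-PD-1 library 3) to 0.08 (without anti-PD-1 library 2) on leaving out each library, and 0.04 with the structural RNA share as a covariate. With upper quartile scaling it was 0.01, beside 0.04 over all tested genes. Top2a, a marker of dividing cells, was at 488, 592 and 483 CPM against 740.3, 621 and 693. Of the 15 mitosis genes, 3 did not overlap with entinostat higher (Aurkb, Top2a and Bub1b). In that group 9 log2 fold changes were above 0 and 6 below, at a median of 0.08. Among 13 replication genes 1 did not overlap, Pcna, with entinostat lower, at a median of 0.03.

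Of 22 tested growth genes that MYC is known to activate, 5 did not overlap with entinostat higher (Ncl, Nop58, Bop1, Fbl and Ccnd2) and 1 with it lower (Nme1), at a median of 0.17, from 0.09 (without anti-PD-1 library 2) to 0.29 (without anti-PD-1 library 3) on leaving out each library, and 0.27 with the alveolar score and -0.27 with the structural RNA share as a covariate. Ncl, which encodes nucleolin, lay at 619, 674 and 434 CPM against 758, 935 and 916. Among 13 genes of the MYC network itself, 2 did not overlap with entinostat higher, at a median of 0.05, from -0.01 (without anti-PD-1 library 2) to 0.05 (without entinostat library 2) on leaving out each library, and 0.10 with the alveolar score and 0.33 with the structural RNA share as a covariate. Hk2, a hexokinase of the glycolysis list, lay at 27.6, 33 and 19.8 CPM against 51.9, 78.6 and 65.8 (1.29 ± 0.39), and that list's median was 0.09, from -0.05 (without anti-PD-1 library 2) to 0.21 (without anti-PD-1 library 1) on leaving out each library, and 0.22 with the alveolar score as a covariate. It was also below 0 without entinostat library 3 (-0.02).

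Of 19 apoptosis regulators, 1 did not overlap with entinostat higher and 2 with it lower, shares near or below those over all genes. Tnfrsf10b, a death receptor for TRAIL, was at 3.11, 3.63 and 2.99 CPM against 6.95, 9.81 and 10.6 (1.49 ± 0.38, DESeq2 adjusted p 0.0167). The proapoptotic BCL2 family genes Bax, at 46.2, 47.1 and 53.7 against 33.3, 39.4 and 33.1, and Bad, at 18.5, 18.2 and 20.4 against 13.4, 15.9 and 12, stood the other way. The list's median was -0.16, from -0.20 (without anti-PD-1 library 1) to 0.09 (without anti-PD-1 library 3) on leaving out each library, and -0.24 with the alveolar score and -0.01 with the structural RNA share as a covariate.

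Nuclear-encoded subunits of the respiratory chain lay lower with entinostat. Of 30 tested, 14 did not overlap with entinostat lower and 0 with it higher, and 29 had a negative log2 fold change. Their median was -0.53, from -0.64 (without anti-PD-1 library 2) to -0.45 (without entinostat library 3) on leaving out each library. The subunits came from complexes I (Ndufa1, Ndufa4, Ndufa8, Ndufb3, Ndufb7, Ndufb9), III (Uqcrfs1), IV (Cox5a, Cox5b, Cox6c, Cox7c) and the ATP synthase (Atp5h, Atp5j, Atp5o). Cox5b lay at 187, 158 and 204 CPM with anti-PD-1 and 101, 93.5 and 84.4 with entinostat (-0.98 ± 0.23, DESeq2 adjusted p 0.0297), and Uqcrfs1, the Rieske iron-sulphur protein, at 133, 262 and 157 against 88.1, 91.4 and 89.4 (-1.04 ± 0.29). Sdha, at 113, 96.6 and 100.5 against 98, 110.2 and 96.3, overlapped. So did Atp5a1, the 1 member with a positive log2 fold change, at 733, 566 and 481 against 701, 600.4 and 569. Atp5b also overlapped, at 924, 543 and 785 against 592, 645 and 570 (-0.32 ± 0.26 on the log2 scale). The controls held 276, 196 and 149 CPM of Cox5b and the combination 82, 111 and 80.8.

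Short transcripts as a class had a negative median log2 fold change, but their medians per library overlapped between the groups. The part of transcript length in these values was not tested. Among the 4167 genes of the shortest length quartile (up to 1984 bases), 12.2% did not overlap with entinostat lower and 5.57% with it higher. In the quartile with the longest (4642 bases and more) the shares were 5.24% and 11.9%, and the median log2 fold changes of the 4 quartiles were -0.11, -0.03, 0.02 and 0.10. Anti-PD-1 library 3 departed most, with a median of 0.18 in the shortest and -0.18 in the longest quartile relative to the mean of the 6 libraries. On that scale the shortest quartile lay at 0.047, -0.025 and 0.179 with anti-PD-1 and at -0.016, -0.029 and -0.101 with entinostat. Over genes, log2 fold change and log2 length correlated at r = 0.032. The respiratory chain genes had a median transcript length of 1232 bases, the cytosolic ribosomal protein genes 1102 and the clustered histones 534, against 4170 for the neuronal differentiation genes. Of 30 tested cytosolic ribosomal protein genes, 5 did not overlap with entinostat lower and 0 with it higher, at a median of -0.27, from -0.45 (without anti-PD-1 library 2) to -0.09 (without anti-PD-1 library 3) on leaving out each library, and -0.46 with the structural RNA share as a covariate.

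**Figure D5:**
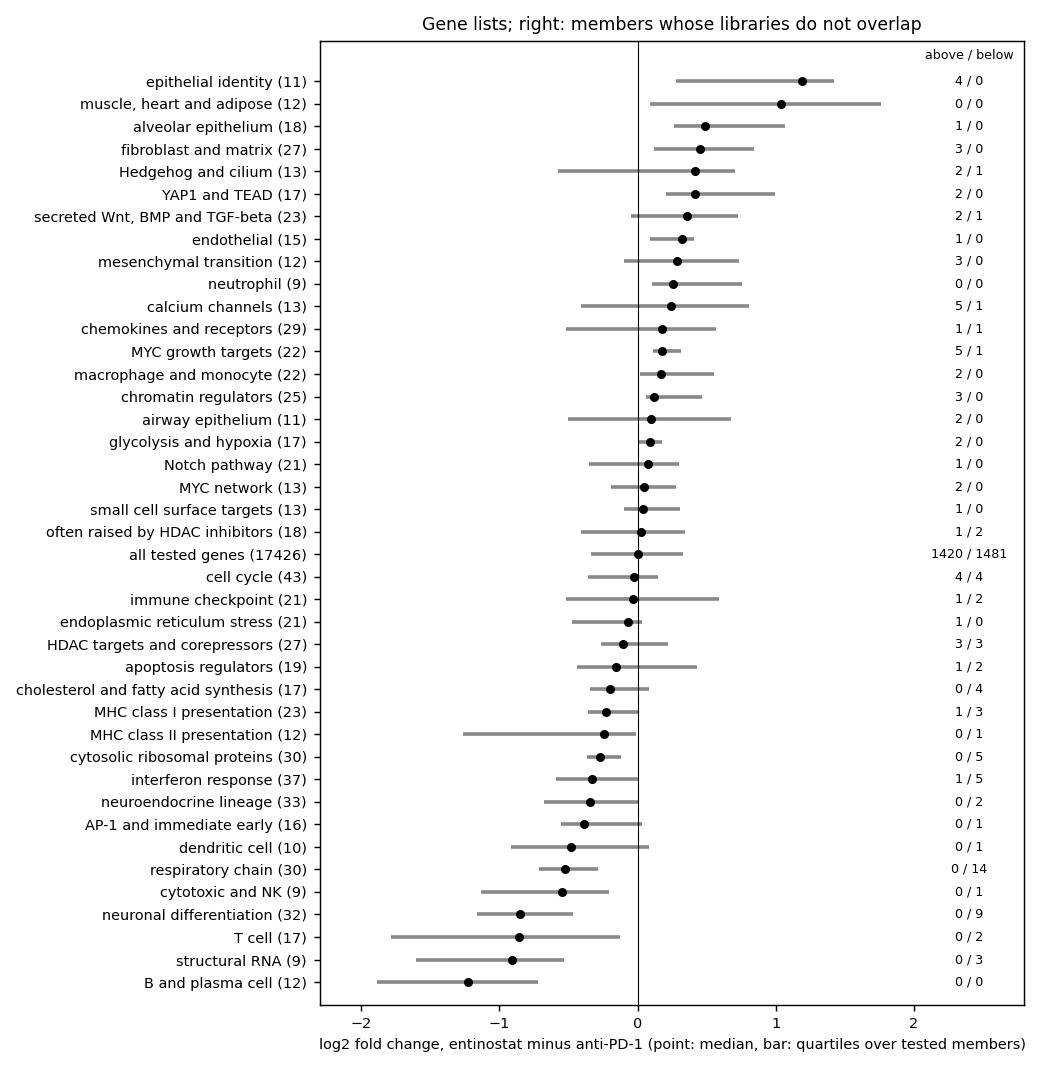
Median log2 fold change, entinostat minus anti-PD-1 (x axis, points), with the quartiles over the tested members (bars) for each list with at least 9 tested genes and for all tested genes, with the number tested in brackets. The numbers at the right give the members whose 3 entinostat libraries lie all above or all below the 3 anti-PD-1 libraries, which over all genes was 1420 and 1481.

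The genes of the PD-1 pathway were scarce and overlapped. Cd274, encoding PD-L1, lay at 4.41, 3.63 and 4.86 CPM with anti-PD-1 and 4.73, 3.92 and 3.79 with entinostat, an unadjusted 95% interval of -1.0 to 0.90 for the log2 fold change. Pdcd1, encoding PD-1, was at 0.969, 0.141 and 0.544 against 0.703, 0.527 and 0.305, near the detection limit. Of 21 checkpoint genes, 1 did not overlap with entinostat higher, Pvr, a ligand of TIGIT, at 1.67, 1.91 and 1.57 against 3.83, 7.38 and 4.58 (1.61 ± 0.57). With entinostat lower there were 2, the receptor gene Tigit, at 0.468, 0.423 and 0.453 against 0.066, 0.146 and 0.153 CPM, and Cd47, the ligand of the phagocytosis inhibitor SIRPA, at 71.1, 40.1 and 35.3 against 29.9, 33.5 and 31.6. The list's median was -0.03, from -0.12 (without anti-PD-1 library 3) to 0.25 (without anti-PD-1 library 1) on leaving out each library, and -0.34 with the alveolar score and 0.26 with the structural RNA share as a covariate. It was also above 0 without anti-PD-1 library 2 (0.01) or entinostat library 3 (0.16). With upper quartile scaling it was 0.0037, beside 0.04 over all tested genes.

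Most lymphocyte genes were scarce, and several were highest in anti-PD-1 library 1. Cd3e did not pass the filter, and Cd8a lay at 1.74, 0.353 and 0.363 CPM with anti-PD-1 and 0.22, 0.527 and 0.55 with entinostat. Of 17 tested T cell genes, 2 did not overlap with entinostat lower (Zap70 and Cd5) and 0 with it higher. The share lower was near the 8.5% over all tested genes. The T cell median was -0.86, from -1.37 (without entinostat library 1) to 0.26 (without anti-PD-1 library 1) on leaving out each library. For 12 B and plasma cell genes, 0 did not overlap, and the median was -1.23, from -1.71 (without anti-PD-1 library 3) to 0.15 (without anti-PD-1 library 1) on leaving out each library. Ms4a1, which encodes CD20, was at 7.99, 1.06 and 0.242 CPM with anti-PD-1 and 0.55, 0.0586 and 1.01 with entinostat. Of 9 tested cytotoxic and NK genes 1 did not overlap with entinostat lower, the chemokine gene Ccl5 at 0.602, 0.67 and 1.06 against 0.33, 0.293 and 0.183, and of 5 regulatory T cell genes 1 did with entinostat higher.

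The interferon list had a negative median. Of 37 tested, 5 did not overlap with entinostat lower (Mx1, Gbp2, Irf7, Cxcl9, Cxcl10) and 1 with it higher (Tmem173), and the median was -0.33, from -0.62 (without entinostat library 1) to -0.17 (without entinostat library 3) on leaving out each library, and -0.64 with the alveolar score and -0.18 with the structural RNA share as a covariate. The T cell attractant gene Cxcl10 was at 0.668, 1.06 and 2.96 CPM against 0.638, 0.527 and 0.0611, and Irf7, a regulator of type I interferon, at 3.07, 4.52 and 4.38 against 3.06, 2.17 and 3.02. Tmem173, which encodes the DNA-sensing adaptor STING, lay at 2.37, 2.26 and 1.42 against 4.97, 3.13 and 5.13 (1.13 ± 0.51).

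In MHC class I presentation, 3 of 23 genes did not overlap with entinostat lower (Psme1, Psme2, Tapbpl) and 1 with it higher (the chaperone gene Canx), at a median of -0.23, from -0.44 (without entinostat library 1) to -0.01 (without anti-PD-1 library 1) on leaving out each library, and -0.54 with the alveolar score as a covariate. Psme2, a subunit of the proteasome activator induced by interferon, was at 35.1, 39.3 and 47.1 CPM against 26.7, 27.7 and 15.8 (-0.79 ± 0.35), and the light chain gene B2m overlapped, at 53.2, 34.4 and 60.8 against 75.6, 57.2 and 21.4. Of 12 MHC class II genes 1 did not overlap, and their median was -0.24, from -0.48 (without anti-PD-1 library 3) to 0.38 (without anti-PD-1 library 1) on leaving out each library, and -1.01 with the alveolar score and 0.16 with the structural RNA share as a covariate.

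Stromal lists had positive medians. Of 27 tested fibroblast and matrix genes, 3 did not overlap with entinostat higher (Acta2, Myh11, Cspg4) and 0 with it lower. The share higher was near the 8.15% over all tested genes. The fibroblast list's median was 0.46, from 0.26 (without anti-PD-1 library 3) to 0.89 (without anti-PD-1 library 1) on leaving out each library, and 0.88 with the structural RNA share as a covariate. Acta2, smooth muscle actin, lay at 26.9, 16.6 and 17.6 CPM with anti-PD-1 and 51.9, 50.6 and 28.2 with entinostat (1.10 ± 0.27, DESeq2 adjusted p 0.0358). Myh11, a smooth muscle myosin, was at 3.44, 5.86 and 2.69 against 14.9, 13.4 and 6.84 (1.55 ± 0.42, DESeq2 adjusted p 0.0351). The fibrillar collagen gene Col1a1 overlapped, at 164, 91.6 and 19.9 against 187, 142 and 147. Endothelial genes gave 1 of 15 and macrophage and monocyte genes 2 of 22 without overlap, with entinostat higher in each case, shares near that over all genes. The endothelial median was 0.32, from 0.05 (without entinostat library 1) to 0.51 (without entinostat library 3) on leaving out each library, and 0.03 with the alveolar score and 0.51 with the structural RNA share as a covariate. That of the macrophage and monocyte genes was 0.17, from 0.02 (without entinostat library 1) to 0.44 (without entinostat library 3) on leaving out each library, and -0.18 with the alveolar score and 0.72 with the structural RNA share as a covariate.

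Normal lung genes varied between libraries of a group. Sftpc, a surfactant gene of alveolar type 2 cells, was at 1.24, 164 and 55.7 CPM with anti-PD-1 and 237, 127 and 32.8 with entinostat, and Scgb1a1 of club cells at 0.201, 127 and 34.7 against 129, 27 and 9.84. Both genes were lowest in anti-PD-1 library 1. Of the 18 alveolar epithelium genes, 17 had a positive log2 fold change and 1 (Aqp5) did not overlap, with entinostat higher. The median was 0.49, from 0.16 (without entinostat library 1) to 1.19 (without anti-PD-1 library 2) on leaving out each library, and 1.34 with the structural RNA share as a covariate. It was -0.14 with the alveolar score as a covariate, but that score is the mean of these same genes. Cholesterol and fatty acid synthesis gave 4 of 17 genes with entinostat lower without overlap (Idi1, Fdps and Sqle among them) and 0 higher, at a median of -0.20, from -0.28 (without entinostat library 3) to -0.05 (without entinostat library 1) on leaving out each library, and -0.10 with the alveolar score as a covariate. Sqle, squalene epoxidase, lay at 91.4, 84.7 and 79.5 CPM against 51.1, 71.2 and 72.7. Immediate early genes gave 1 of 16 with entinostat lower, at a median of -0.39, from -0.44 (without entinostat library 1) to -0.10 (without anti-PD-1 library 1) on leaving out each library. Endoplasmic reticulum stress genes gave 1 of 21 with it higher, at -0.07, from -0.16 (without anti-PD-1 library 2) to -0.05 (without anti-PD-1 library 3) on leaving out each library, and -0.39 with the structural RNA share as a covariate.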

How the data were processed

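Raw counts per gene for 12 libraries were deposited by the authors in 1 table. The submitters' processing notes name the genome build mm9, STAR 2.5.4a, Trimmomatic 0.36 and Trim Galore, and, in R 3.5.1, DESeq2 1.22.2, and the table's name in the labels points to TPMcalculator as the counter. From 65.3% to 77.2% of the counts between 1 and 20 were even, as would follow from counting both mates of a pair, and a fit on halved counts is among the alternatives.

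edgeR 4.0.16 was fitted to all 12 libraries (robust quasi-likelihood, filterByExpr, TMM), with a mean per group and the contrast entinostat minus anti-PD-1. Benjamini-Hochberg adjustment covered all tested genes, at a threshold of 0.05. DESeq2 and limma voom were alternatives. CPM were scaled by TMM, and a standard error is the log2 fold change over the root of its F statistic. No library was dropped or imputed. Transcript lengths are those of the longest GENCODE M21 transcript per symbol, found for 95.5% of tested genes. Named genes are the 6 smallest p-values in each direction without overlap and at a mean log2 CPM of at least 1, a set of lineage, target and checkpoint genes, and the 2 most abundant members of each of 45 lists that a paragraph turns on. Other list members were named after their values were seen. The comparison and the lists were chosen with earlier results of these data known. Some genes of the lists are counted but not reported here by name.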

Additional observations from a re-analysis of the deposited data

How the results depend on the processing

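Of 22 alternatives, 20 gave 0 genes at an adjusted p under 0.05, as the edgeR test did. DESeq2 gave 147 genes (58 higher and 89 lower with entinostat), and DESeq2 on the 6 libraries alone 338 (122 and 216), and the cause of the difference from edgeR was not tested. The 20 were 2 other sets of libraries in the fit, 2 scalings, 2 filters, structural RNA left out, halved counts, 3 covariates, limma voom, edgeR without robust estimation, the replicate block and 6 fits leaving out a library. Leaving out each of the 6 libraries gave 0 to 0 calls and 1015 to 1897 genes at an unadjusted p under 0.05, beside 1532 with all. The lowest came without entinostat library 2. With the structural RNA share as a covariate 2719 genes had an unadjusted p under 0.05, and the smallest adjusted p was 0.0615. Deviations of same-numbered libraries from their group means correlated at r = -0.19, 0.10 and -0.14 over genes, and those of differently numbered ones at -0.08 to 0.23. With 3 libraries a group, these values cannot decide whether the numbers pair the samples. With the replicate number as a block 0 genes passed and 1283 had an unadjusted p under 0.05. Of 53 genes followed, 51 kept their direction under each alternative in which they were tested, and Cxcl9, Tigit and Wif1 were not tested under all of them. The 53 include the leading genes, picked without overlap, and genes named after their values were seen. Their kept direction thus follows in part from the choice and is no separate support. Hdac2 turned to 0.011 with the alveolar score as a covariate, and Cd274 lay between -0.16 (without anti-PD-1 library 2) and 0.039 (without anti-PD-1 library 3) on leaving out each library, also above 0 without entinostat library 3 (0.0086). limma voom, edgeR without robust estimation, DESeq2 on 6 libraries and the structural RNA covariate were chosen after seeing the data. With 3 libraries a group, differences near the median standard error of 0.39 cannot be resolved, and genes under about 1 CPM rest on few reads.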
